A study of Homo sapiens with 9 samples.

Results

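Hep3B is a human liver cancer cell line that is widely used to study how hepatocytes respond to low oxygen. The response described here is that of Hep3B cells kept for 24 hours at 1% O2 with vehicle alone, compared with cells kept for 24 hours at 20% O2 with vehicle alone. The vehicle was DMSO in both groups, so no group was free of it. Each group held 3 RNA-seq libraries, which the labels call biological replicates seeded in the wells of plates, and these 6 libraries were chosen by their labels from the 9 of the series. The other 3 libraries came from cells given the compound 32-134D at 1% O2 and entered the filter on low counts, the scaling and the estimate of the spread between replicates, but not the comparison. Both groups stand for 1 cell line at 1 time point, and no wash-out or earlier time was among the samples.

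Animal cells sense oxygen through prolyl hydroxylases of the EGLN family, which mark the alpha subunits of the hypoxia-inducible factors (HIFs) for capture by the von Hippel-Lindau protein and destruction when oxygen is plentiful. When oxygen falls, the alpha subunits encoded by HIF1A and EPAS1 escape, pair with the ARNT protein and bind a short core motif, ACGTG or GCGTG, in the DNA of their target genes. Known targets supply glucose transporters, glycolytic enzymes, vessel growth factors and, in the fetal liver and in some liver tumor cells, erythropoietin.

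The sequence before a RefSeq transcription start is shown for 4 genes because the core motif in promoters was one of the features compared. CA9 and BNIP3 are textbook HIF targets, GAPDH had the largest rise in level per kilobase of exon among nuclear genes, and GPAM was among the largest falls. Each line holds the 250 bases before that RefSeq start on GRCh38.p14, written 5′ to 3′ on the strand of the gene. Capitals mark each ACGTG or GCGTG on either strand.
CA9: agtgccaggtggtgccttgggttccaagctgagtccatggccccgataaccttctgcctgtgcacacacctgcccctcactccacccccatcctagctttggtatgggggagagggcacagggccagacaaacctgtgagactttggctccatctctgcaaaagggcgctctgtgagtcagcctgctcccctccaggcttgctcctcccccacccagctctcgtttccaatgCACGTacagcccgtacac
BNIP3: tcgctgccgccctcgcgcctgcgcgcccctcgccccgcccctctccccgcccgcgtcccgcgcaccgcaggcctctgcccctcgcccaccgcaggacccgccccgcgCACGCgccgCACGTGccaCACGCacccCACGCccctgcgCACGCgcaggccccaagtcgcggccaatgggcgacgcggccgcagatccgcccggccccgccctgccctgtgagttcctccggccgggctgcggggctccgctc
GAPDH: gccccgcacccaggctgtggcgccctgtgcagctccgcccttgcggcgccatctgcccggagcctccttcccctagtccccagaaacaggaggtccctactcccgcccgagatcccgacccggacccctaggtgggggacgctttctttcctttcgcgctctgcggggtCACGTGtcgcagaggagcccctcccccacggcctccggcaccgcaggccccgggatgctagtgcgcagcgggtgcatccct
GPAM: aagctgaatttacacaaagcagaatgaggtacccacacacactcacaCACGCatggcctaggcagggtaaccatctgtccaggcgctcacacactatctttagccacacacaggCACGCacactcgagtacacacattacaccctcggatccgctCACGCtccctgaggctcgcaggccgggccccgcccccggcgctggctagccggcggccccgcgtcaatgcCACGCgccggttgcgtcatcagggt
These windows lie at chr9:35673678-35673927 on the plus strand, chr10:131981924-131982173 on the minus strand, chr12:6535014-6535263 on the plus strand and chr10:112183766-112184015 on the minus strand, in that order. The match nearest the start began 18 bases before it in CA9, 104 in BNIP3, 80 in GAPDH and 25 in GPAM. All 4 windows held the core, including that of the gene that fell.

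Total counts ran from 6013980 to 31370726 in the libraries at 20% O2 and from 23550989 to 40549699 at 1% O2. On the principal components of the 6 libraries, PC1 held 68.4% of the variance and separated the groups, which lay from -90.6 to -69.6 at 20% O2 and from 75.3 to 80.8 at 1% O2. Replicate 2 at 20% O2, the smallest library, stood apart on PC2 at -67.3 against 24.2 and 52.3 for the other 2 of its group. Without it, 4216 genes were called higher and 4440 lower, against 4412 and 4595 with it. In a chi-square comparison of counts, replicate 1 of each group differed most from the other 2. At 20% O2 its chi-square per degree of freedom was 6.72 against replicate 2 and 13.3 against replicate 3. Between replicates 2 and 3 it was 1.64. At 1% O2 these values were 8.63, 12.96 and 2.60. The measure also grows with library size. Without replicate 1 at 20% O2, 4093 genes were higher and 4630 lower. The cells carried the RNAs that define their lineage. ALB, which encodes albumin, took more counts than any other gene in each library at 20% O2, with 9686, 9088 and 9078 CPM at 20% O2 and 8287, 10113 and 10208 CPM at 1% O2, and the groups overlapped. HNF4A, the central transcription factor of hepatocytes, measured 335, 418 and 393 CPM at 20% O2 and 357, 357 and 346 CPM at 1% O2. TF, which encodes transferrin, changed by 0.23 on the log2 scale and was not called. Among markers of other cells, PTPRC, CD3E, MS4A1, NKG7, VWF, KDR, TEK, CDH5, DCN and ACTA2 had at most 4 counts in either group, which is under the filter for testing. The markers of other cells that could be tested were 3 of 8 for leukocytes, 1 of 6 for endothelium and 4 of 8 for fibroblasts, and LYZ and PDGFRB made up most of their summed level. That sum ran from 27.1 to 33.6 CPM at 20% O2 and from 9.04 to 11.6 CPM at 1% O2 for leukocyte markers. It ran from 0.639 to 1 CPM and from 0.0943 to 0.38 CPM for endothelial markers, and from 36.1 to 39.7 CPM and from 17.1 to 18.5 CPM for fibroblast and stellate cell markers, and the share of other cells in any result was not tested.

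Of 22672 genes tested, 4412 were higher and 4595 lower at 1% O2, with an FDR below 0.05 and a fold change above 1.5 in the edgeR quasi-likelihood test. These calls cover 39.7% of all genes tested, 19.5% in the higher and 20.3% in the lower direction, and every count of a gene group below is read against these shares. Values are counts per 1000000 (CPM) scaled by the TMM method, and each log2 fold change is that of 1% over 20% O2, with its standard error from the fit. Among all called genes, falls were larger than rises. The median fold of the called genes was 2.09 among those higher and 2.73 among those lower, and 318 genes rose by over 8-fold where 654 fell by over 8-fold. The counts behind a gene went with the size of its change and with its direction. Of the called genes with a mean under 1 CPM, 1317 of 2078 changed by over 4-fold. With at least 100 CPM, 99 of 1063 did. The sizes of falls and rises were not compared within a level. Of the genes with a mean of at least 100 CPM, 28.4% were higher and 13.99% lower, whereas 7.27% were higher and 16.4% lower among those under 1 CPM. The split between directions depended on the scaling. With TMM, 49.0% of all calls were higher, and with scaling by total counts 34.5% were, since that scaling moved the median log2 fold change of all genes to -0.21. Under it the calls of CA12 (0.56), CLK2 (0.43), EGLN3 (0.49), HLA-B (0.58), HSF1 (0.56), HSP90AB1 (0.56), JMJD1C (0.55) and MTF1 (0.54) as higher were lost, and LOXL4 (-0.72) and MT-CO1 (-0.73) became lower. These are bulk samples, in which fewer cells of a kind and less RNA of a gene per cell cannot be told apart.

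**Figure D1:**
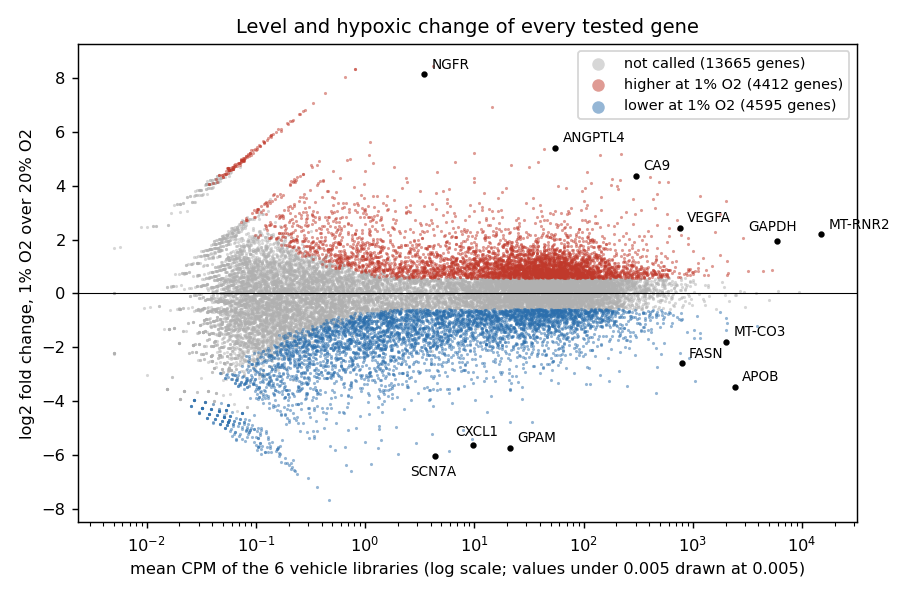
Log2 fold change of 1% over 20% O2 (vertical axis) against the mean CPM of the 6 vehicle libraries (horizontal log axis) for each of the 22672 genes tested, with a few genes labelled. Genes called higher (4412, red) made up 28.4% of genes with at least 100 CPM, and those called lower (4595, blue) made up 13.99% of them.

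The genes that the study used as readouts of HIF activity rose in every library at 1% O2. CA9 (chr9:35673856-35681159 on GRCh38), a carbonic anhydrase on the cell surface that handles acid, measured 27.97, 29.05 and 26.8 CPM at 20% O2 and 511, 598 and 631 CPM at 1% O2. The groups did not overlap, and the log2 fold change was 4.38 ± 0.11 (edgeR FDR = 1.1e-12), or 20.8-fold. ANGPTL4 (chr19:8363289-8374373), a secreted inhibitor of lipoprotein lipase, went from 2.87, 2.36 and 2.34 CPM at 20% O2 to 93.3, 108 and 122 CPM at 1% O2, a 42.8-fold rise. VEGFA (chr6:43770184-43786487), the main growth factor for blood vessels, was already well expressed at 20% O2, with 215, 249.7 and 246 CPM, and reached 1204, 1349.6 and 1338 CPM. NDRG1, a stress-responsive gene often used as a marker of hypoxia, had 63.3, 72.7 and 68.01 CPM at 20% O2 and 789, 879.7 and 959.9 CPM at 1% O2. EPO (chr7:100720800-100723700), which encodes the hormone erythropoietin, was low at 20% O2, with 1.004, 0.314 and 0.608 CPM, and measured 8.11, 10.2 and 10.9 CPM at 1% O2. Its lowest library at 1% O2 lay above its highest at 20% O2, and the log2 fold change was 3.82 ± 0.26 (edgeR FDR = 1.3e-08). In terms of log2 fold change, ANGPTL4 rose by 5.43, CA9 by 4.38, EPO by 3.82, NDRG1 by 3.69 and VEGFA by 2.45. RPL13A, a ribosomal protein gene often used as a reference, was not flat. The study describes RPL13A as a gene that hypoxia does not induce. Its RT-qPCR was scaled to a ribosomal RNA, a measure and scaling unlike those used here. In these libraries RPL13A measured 1085, 878 and 819.6 CPM at 20% O2 and 1559, 1746 and 1786 CPM at 1% O2. Its log2 fold change of 0.87 ± 0.10 became 0.65 under scaling by total counts.

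**Figure D2:**
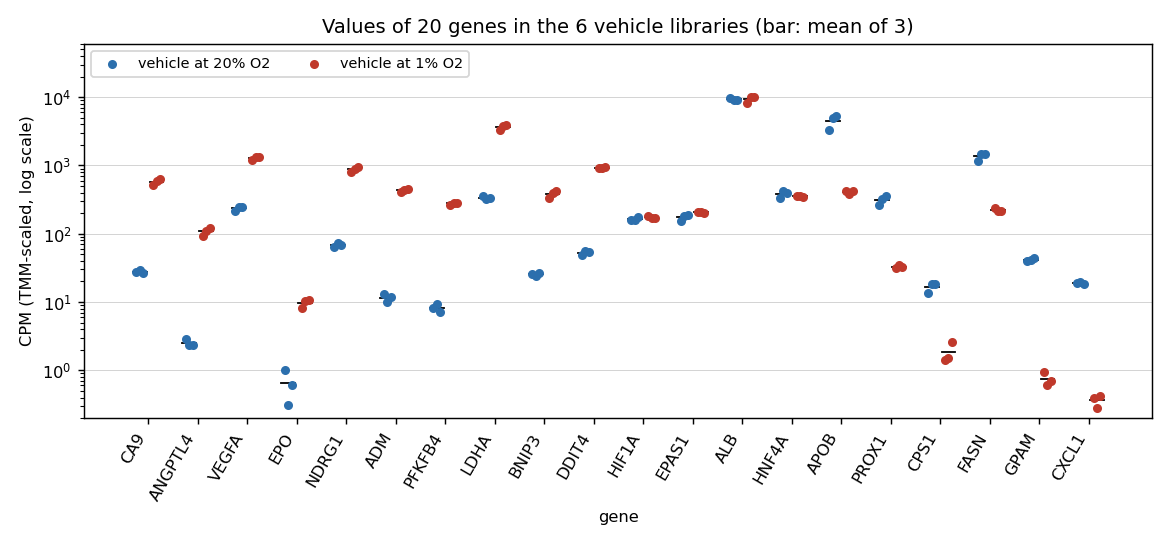
CPM (vertical log axis) of 20 genes in each of the 3 libraries at 20% O2 (blue) and the 3 at 1% O2 (red), with a bar at each mean. Points of the HIF targets from CA9 to DDIT4 and of the repressed genes from APOB to CXCL1 did not overlap between the groups, while those of HIF1A, ALB and HNF4A did.

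Transcripts of the main HIF alpha subunits, HIF1A and EPAS1, were not called. HIF1A measured 157, 157 and 176 CPM at 20% O2 and 183, 168 and 169 CPM at 1% O2, and the groups overlapped. EPAS1, which encodes HIF-2α, had 156, 182 and 188 CPM at 20% O2 and 209, 208 and 199 CPM at 1% O2 and a log2 fold change of 0.23 ± 0.08, under the fold threshold. Of the 14 genes of oxygen sensing, 3 (21.4%) were higher and 2 (14.3%) lower, against 19.5% and 20.3% of all genes. Under scaling by total counts 2 were higher and 3 lower. EGLN1, the main prolyl hydroxylase that limits HIF, rose from 37.9, 45.5 and 44.5 CPM to 226, 245 and 243 CPM. CITED2, which competes with HIF for its coactivators, rose from 30.8, 28.6 and 31.5 CPM to 242, 267 and 276 CPM, the largest rise of the list at 3.10 ± 0.08 on the log2 scale (edgeR FDR = 2.3e-12). EGLN3, a hydroxylase of the same family, showed a smaller difference of 0.70 ± 0.19, which was 0.57 and under the fold threshold without replicate 3 at 1% O2. EGLN2 fell from 17.999, 15.4 and 17.001 CPM to 8.56, 7.68 and 8.43 CPM. HIF3A, an alpha subunit that can counter the others, had 5.02, 5.18 and 5.96 CPM at 20% O2 and 3.13, 3.06 and 3.32 CPM at 1% O2, without overlap, but its call was lost when any 1 of the 6 libraries was left out. ARNT (0.54) was not called, and the list's median log2 fold change of 0.13 became -0.08 under scaling by total counts.

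Glucose uptake and glycolysis shared the largest share of induced genes among the lists with the integrated stress response. Of its 23 genes, 21 were higher, or 91.3% against 19.5% of all genes, and the median log2 fold change was 2.14. SLC2A1, the glucose transporter GLUT1, went from 17.2, 25.9 and 23.4 CPM to 365, 429 and 440.2 CPM. PFKFB4, an enzyme that sets the level of the main activator of phosphofructokinase, measured 8.103, 9.26 and 7.15 CPM at 20% O2 and 265, 284 and 283 CPM at 1% O2. No library of one group came near the other, and its log2 fold change of 5.14 ± 0.15 (edgeR FDR = 3.7e-12) was the largest of the list. ENO2, an enolase best known from neurons, rose 16.4-fold, from 21.01, 21.2 and 19.9 CPM to 329, 341 and 346 CPM. GAPDH (chr12:6533927-6538374), which oxidizes glyceraldehyde phosphate in mid-glycolysis and is often taken as a constant reference, measured 2543, 2424 and 2364 CPM at 20% O2 and 8299.6, 9694 and 10106 CPM at 1% O2. All libraries at 1% O2 lay above all at 20% O2, and the log2 fold change was 1.94 ± 0.09 (edgeR FDR = 2.5e-10). PDK1, the kinase that inhibits pyruvate dehydrogenase in the mitochondrial matrix, rose from 6.24, 5.81 and 7.603 CPM to 106, 109.6 and 114 CPM. LDHA, which turns pyruvate into lactate, and PGK1, the kinase that makes ATP after GAPDH, were picked after their values were seen. LDHA measured 353, 321 and 328 CPM at 20% O2 and 3324, 3762 and 3938 CPM at 1% O2, and PGK1 measured 191, 186 and 187 CPM at 20% O2 and 1180.3, 1255 and 1336 CPM at 1% O2. PFKM, the muscle isoform of phosphofructokinase, fell from 18.2, 19.2 and 19.5 CPM to 11.8, 12.4 and 12.2 CPM, and its log2 fold change of -0.65 ± 0.10 (edgeR FDR = 7.0e-05) was the only fall called in the list. PFKL, the liver isoform and the only gene of the list that was not called, went from 182, 178 and 192 CPM to 229, 262 and 279 CPM, without overlap but under the fold threshold, and it passed at 0.85 once trends over exon length and GC content were removed. Together the 23 genes took between 6355 and 6706 CPM at 20% O2 and between 25143 and 29601 CPM at 1% O2.

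Of 8 tested genes of acid-base control, 2 were higher and 2 lower, or 25% each, against 19.5% and 20.3% of all genes. Besides CA9, its membrane-bound relative CA12 rose from 16.6, 16.02 and 15.97 CPM to 27.5, 28.995 and 26.6 CPM. SLC4A4, a sodium bicarbonate cotransporter, fell steeply, from 88.3, 87.9 and 95.4 CPM to 8.8001, 9.85 and 10.5 CPM, a log2 fold change of -3.23 ± 0.18 (edgeR FDR = 1.7e-09). Its groups lay far apart. SLC4A7, a related cotransporter, had 29.5, 31.1 and 29.9 CPM at 20% O2 and 18.4, 14.3 and 16.5 CPM at 1% O2, and its call as lower was lost when any 1 library was left out. BSG, a chaperone of lactate transporters, and SLC16A1, one of those transporters, changed by 0.43 and 0.31 on the log2 scale, under the fold threshold.

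Secreted signals, most of them for blood vessels, held several of the largest inductions. Of 18 tested genes of this list, 9 were higher and 1 lower, and 2 others were under the filter. ADM, which encodes the vasodilator peptide adrenomedullin, measured 12.9, 9.89 and 11.9 CPM at 20% O2 and 405, 432 and 453 CPM at 1% O2. The 3 libraries at 1% O2 stood 37.2-fold above those at 20% O2 (log2 fold change 5.19 ± 0.10, edgeR FDR = 1.8e-13). IGFBP1, a liver protein that binds insulin-like growth factors, rose 40.7-fold from 1.86, 2.36 and 1.98 CPM to 88.6, 84.3 and 79.6 CPM. STC2, a secreted glycoprotein, rose from 20.9, 27.8 and 24.6 CPM to 391, 398 and 361 CPM. Another 8 tested genes of the list were called in neither direction. The 1 gene called lower was EDN1, which encodes the vasoconstrictor endothelin. It fell from 9.896, 7.22 and 8.03 CPM to 0.477, 0.754 and 0.899 CPM, with no overlap between the groups and a log2 fold change of -3.60 ± 0.42 (edgeR FDR = 3.8e-06).

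Enzymes that modify collagen use oxygen as a substrate, as the EGLN enzymes do, and 6 of 12 were higher with none lower. P4HA1, the catalytic subunit of collagen prolyl hydroxylase, measured 18.9, 16.96 and 18.3 CPM at 20% O2 and 312, 357 and 372 CPM at 1% O2. Every library at 1% O2 was far above every library at 20% O2, at 4.25 ± 0.12 on the log2 scale (edgeR FDR = 3.4e-12). P4HA2, its second catalytic form, rose from 26.5, 25.4 and 25.2 CPM to 165, 181 and 160.2 CPM, whereas the partner subunit P4HB, present at 1252, 1223 and 1222 CPM at 20% O2, changed by only 0.33. The lysyl hydroxylases PLOD2 and PLOD1 rose by 2.15 and 1.26, and PLOD3 was not called at -0.11. The lysyl oxidases, which cross-link collagen, divided likewise. LOX and LOXL2 rose by 2.05 and 2.21, whereas LOXL4 measured 208, 214 and 207 CPM at 20% O2 and 132, 154 and 155 CPM at 1% O2 and stayed under the fold threshold in the opposite direction.

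Of 8 genes of mitophagy, the removal of mitochondria, 3 (37.5%) were higher and 1 (12.5%) lower, against 19.5% and 20.3% of all genes. BNIP3, a receptor on the outer mitochondrial membrane, measured 25.8, 24.2 and 26.7 CPM at 20% O2 and 338, 397 and 417 CPM at 1% O2. Its groups were far apart, with a log2 fold change of 3.90 ± 0.11 (edgeR FDR = 2.8e-12). Its relative BNIP3L rose from 19.5, 20.3 and 19.6 CPM to 183, 194 and 208 CPM. PINK1, the kinase of the other main mitophagy route, rose by 1.06. The list did not move as a whole, since its log2 fold changes ran from -3.40 to 3.90 with a median of 0.40.

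Among the 19 tested histone lysine demethylases, which also need oxygen, 4 were higher, a share of 21.1% that is close to the 19.5% of all genes, and none lower. KDM3A, which removes methyl groups from lysine 9 of histone H3, stood out. It measured 66.98, 66.4 and 75.1 CPM at 20% O2 and 751, 809 and 828 CPM at 1% O2, an 11.5-fold rise (edgeR FDR = 1.7e-12). KDM4B rose by 1.26, KDM7A by 0.96 and JMJD1C by 0.77 on the log2 scale.

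Of 19 genes of the circadian clock, 8 (42.1%) were higher and 4 (21.1%) lower, the second share close to the 20.3% of all genes. BHLHE40, a repressor that interferes with the clock activators and is also a known HIF target, measured 41.7, 47.3 and 48.02 CPM at 20% O2 and 455, 537 and 561 CPM at 1% O2. The activating nuclear receptor RORA rose from 13.3, 13.03 and 14.9 CPM to 108, 113 and 111 CPM, a log2 fold change of 2.99 ± 0.13 (edgeR FDR = 1.3e-10). NR1D1, the repressing receptor that opposes it, rose by 1.45 and NFIL3 by 1.89. NPAS2, which can replace the activator CLOCK, fell from 46.6, 48.8 and 50.7 CPM to 15.4, 17.3 and 15.04 CPM, and HLF, a clock output factor, fell from 17.6, 19.2 and 19.6 CPM to 7.71, 6.27 and 6.46 CPM.

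Ranked by size alone among well-counted genes without overlap, the 10 largest rises were GEM, NGFR, HSPA6, ANGPTL4, IGFBP1, LGI4, ADM, PFKFB4, GADD45G and ARRDC4. GEM, a small GTP-binding protein that restrains calcium channels, had 0, 0 and 1 counts in the libraries at 20% O2 and 258, 204 and 256 at 1% O2. The ratio of the groups was 435 (95% interval 77.8 to 17192, counting error only). NGFR, the low-affinity receptor of nerve growth factor, had 0, 1 and 0 counts against 219, 167 and 202, a ratio of 356 (95% interval 63.6 to 14084, counting error only). Both genes were essentially undetected at 20% O2, so their folds are poorly bounded. LGI4, a secreted protein known from the myelination of peripheral nerves, measured 0.359, 0.628 and 0.547 CPM at 20% O2 and 17.7, 19.9 and 20.2 CPM at 1% O2. GADD45G, a growth arrest gene induced by DNA damage and stress, went from 0.215, 0.157 and 0.608 CPM to 10.8, 14.3 and 14.3 CPM. ARRDC4, an arrestin family member linked to glucose uptake, rose from 3.08, 2.198 and 2.28 CPM to 71.7, 72.3 and 79.5 CPM (log2 fold change 4.89 ± 0.18, edgeR FDR = 4.0e-11). HSPA6, an inducible member of the HSP70 family, measured 0.287, 0.314 and 0.182 CPM at 20% O2 and 16.2, 44.03 and 25.7 CPM at 1% O2, and its value is uncertain because the near-identical HSPA7 can share its reads.

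Genes of the integrated stress response were nearly all higher. This pathway slows translation while the factor ATF4 turns on genes for amino acid supply. Of 23 genes, 21 were higher and none lower, with a median log2 fold change of 2.10. ATF4 itself, named here after its values were seen, measured 238, 221 and 221 CPM at 20% O2 and 974, 1019 and 984 CPM at 1% O2. DDIT4, an inhibitor of mTORC1 that HIF also controls, went from 48.8, 55.6 and 54.3 CPM to 902, 913 and 957 CPM. The groups were separated 17.5-fold (edgeR FDR = 4.3e-11). GDF15, a stress hormone, rose from 171, 179 and 168 CPM to 1982, 2210.3 and 2233 CPM. MTHFD2, a mitochondrial enzyme of folate metabolism, and SLC3A2, the shared heavy chain of amino acid exchangers, rose by 2.97 and 2.95 on the log2 scale. GDF15, GAPDH and FTL, the light chain of the iron store ferritin, were the nuclear genes among the 5 largest rises per kilobase. FTL went from 2585 to 4672 CPM per kilobase of exon and GDF15 from 82.8 to 1026.

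Aminoacyl-tRNA synthetases, which charge tRNAs and include known ATF4 targets, followed. Of 20 cytosolic enzymes, 13 were higher and none lower. GARS1 for glycine measured 242, 248 and 243 CPM at 20% O2 and 933, 910.2 and 890.3 CPM at 1% O2. The groups did not overlap for it or for TARS1, CARS1 and SARS1, the enzymes for threonine, cysteine and serine, which rose by 1.83, 1.66 and 1.44. ER chaperones moved less uniformly, with 7 (33.3%) higher and 3 (14.3%) lower of 21, against 19.5% and 20.3% of all genes. Under scaling by total counts 5 were higher and 5 lower. DNAJB9, a cochaperone of the unfolded protein response, rose 8.498-fold, from 12.8, 10.4 and 11.4 CPM to 98.3, 104 and 91.7 CPM. HERPUD1, which serves ER-associated degradation, rose by 2.15, and the oxidases ERO1A and ERO1B, which form disulfide bonds with molecular oxygen, by 2.01 and 1.31. CRELD2 and SEL1L, which serve folding and degradation in the ER, fell, with log2 fold changes of -0.74 and -0.71.

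Cytosolic heat shock genes were higher in 10 of 13 cases. DNAJB1, the inducible cochaperone of HSP70, measured 236, 236 and 231 CPM at 20% O2 and 1022, 1458 and 1208 CPM at 1% O2. The small heat shock protein HSPB8 rose from 4.02, 5.18 and 4.41 CPM to 32.6, 33.7 and 28.7 CPM, and its partner BAG3 from 30.5, 36.3 and 37.7 CPM to 141, 166 and 138 CPM. The major chaperones HSP90AA1, HSPA8 and HSP90AB1 rose by 1.21, 1.02 and 0.77, and HSF1, the factor that governs the group, by 0.78. HSPA4 (0.28) and HSPB1 (0.37) were not called.

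Metallothioneins, small proteins that bind zinc and copper, were higher in 8 of 9 tested cases, a list that includes their regulator MTF1 and the zinc exporter SLC30A1. MT2A, the form expressed in most tissues, measured 6.45, 5.02 and 7.06 CPM at 20% O2 and 14.7, 19.6 and 18.3 CPM at 1% O2. MT1X rose from 1.22, 0.942 and 1.31 CPM to 3.79, 5.75 and 5.19 CPM and MT1E from 0.215, 0.157 and 0.304 CPM to 1.43, 2.59 and 1.76 CPM.  MT1M was at 0 in the 3 libraries at 20% O2 and at 0.212, 0.236 and 0.3803 CPM at 1% O2, at least 4.84-fold higher against a floor of 3 counts over the group. The genes are near-identical copies, so reads may be divided among them, and the count of higher genes was 3 when at least 10 counts were asked of every library.

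Of 12 immediate early genes, which respond to many stimuli, 6 (50%) were higher and 2 (16.7%) lower, against 19.5% and 20.3% of all genes. JUN, a subunit of AP-1, measured 84.5, 90.9 and 94.04 CPM at 20% O2 and 719, 909.98 and 831 CPM at 1% O2, and FOSL2, another, rose from 8.03, 7.07 and 9.64 CPM to 126, 133 and 132 CPM. ATF3, a stress-responsive factor that also belongs to the ATF4 program, rose 23.3-fold, from 8.39, 8.32 and 10.1 CPM to 195, 229.6 and 201 CPM (edgeR FDR = 9.5e-13). MYC rose by 1.08 and JUND by 1.61. EGR1 fell from 27.5, 27.95 and 29.9 CPM to 8.99, 6.88 and 6.603 CPM and IER3 from 125, 109 and 111 CPM to 40.9, 45.4 and 47.6 CPM, and FOS and JUNB were not called.

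The 10 largest falls under the same rule were SCN7A, RIPOR3, GPAM, CXCL1, ANO1, MUC6, AC010491.2, C2orf16, ATP2B2 and PRLR. GPAM (chr10:112149864-112215377), which encodes the mitochondrial acyltransferase that starts triglyceride synthesis, went from 39.6, 41.5 and 44.7 CPM to 0.954, 0.613 and 0.691 CPM. The fall was 53.6-fold, with a log2 fold change of -5.74 ± 0.44 (edgeR FDR = 5.0e-08). CXCL1, a chemokine that attracts neutrophils, had 19.1, 19.8 and 18.4 CPM at 20% O2 and 0.398, 0.283 and 0.415 CPM at 1% O2, a 50.2-fold fall without overlap. PRLR, the prolactin receptor, fell from 33.3, 43.02 and 47.3 CPM to 1.64, 1.13 and 1.62 CPM, and ATP2B2, a calcium pump of the plasma membrane, from 48.5, 77.4 and 70.6 CPM to 1.696, 2.45 and 3.01 CPM. Replicate 1 at 20% O2 was the lowest of its group for both. ANO1 and SCN7A, a chloride and a sodium channel, fell from 3.08, 7.22 and 6.75 CPM to 0.05301, 0.141 and 0.173 CPM and from 8.39, 8.95 and 8.52 CPM to 0.0265, 0.0943 and 0.277 CPM. MUC6, a secreted mucin, fell from 12.4, 19.8 and 23.4 CPM to 0.451, 0.519 and 0.346 CPM, and RIPOR3 from 12.3, 10.99 and 11.3 CPM to 0.0795, 0.141 and 0.3803 CPM. AC010491.2 was not found in GENCODE 29, and no position is given for it.

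The liver program was lowered in part. Of 17 tested hepatocyte transcription factors, 4 were higher and 7 lower. PROX1, a homeobox factor of liver development, measured 260.4, 319 and 353 CPM at 20% O2 and 31.4, 34.5 and 32.4 CPM at 1% O2, a fall of 9.497-fold (edgeR FDR = 8.6e-12). CEBPA, which drives the mature liver program, fell from 474, 448 and 451 CPM to 147, 153 and 149 CPM. NR1H4, the bile acid receptor, fell from 12.9, 12.6 and 13.7 CPM to 2.81, 2.69 and 3.803 CPM. In the other direction, FOXA3 rose from 75.1, 72.9 and 73.1 CPM to 175, 216 and 209.9 CPM and NR5A2 from 102, 109 and 111 CPM to 255, 259.7 and 254 CPM. HNF4A was not called, at -0.11 ± 0.08.

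Among the secreted liver proteins, 13 of 32 tested genes were lower and 1 higher. APOB, the structural protein of very low density lipoproteins, measured 3256, 4948 and 5256 CPM at 20% O2 and 423, 377 and 416 CPM at 1% O2. Replicate 1 was the lowest at 20% O2, and all 3 libraries at 1% O2 lay far under it, at a log2 fold change of -3.47 ± 0.18 (edgeR FDR = 7.6e-10). F5, which encodes coagulation factor V, fell from 122, 153 and 164 CPM to 15.7, 19.8 and 21.2 CPM. APOC3, an apolipoprotein that slows triglyceride clearance, was the one that rose, from 17.1, 16.5 and 14.4 CPM to 24.6, 32.4 and 35.4 CPM. AFP, the fetal albumin relative used as a tumor marker, went from 239, 225 and 212 CPM to 115, 149 and 156 CPM. Its groups did not overlap, but its call as lower (log2 fold change -0.69 ± 0.23, edgeR FDR = 0.019) was lost without replicate 1 at 1% O2, where the value was -0.56, and without replicate 1 or 2 at 20% O2, where it was -0.70 and -0.69.

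Nitrogen and drug metabolism followed in the same direction. In the urea cycle and amino acid breakdown, 8 of 18 tested genes were lower and 3 higher, 1 of them also under scaling by total counts. CPS1, the first enzyme of the urea cycle, measured 13.6, 18.2 and 18.5 CPM at 20% O2 and 1.43, 1.51 and 2.59 CPM at 1% O2. The groups were 9.07-fold apart (edgeR FDR = 3.2e-04). In contrast, NAGS, which makes its activator, rose from 3.801, 3.14 and 3.13 CPM to 13.1, 12.9 and 15.1 CPM. TDO2, which opens the tryptophan ring with oxygen, fell from 4.23, 3.77 and 3.71 CPM to 0.0265, 0.141 and 0.0346 CPM. For bile acid and drug metabolism, 9 of 15 tested genes were lower and none higher, and 5 of the 20 genes listed were under the filter. SULT2A1, a sulfotransferase of steroids and bile acids, fell from 11.98, 16.3 and 14.6 CPM to 1.88, 1.79 and 2.25 CPM. CYP3A5 fell from 1.72, 1.26 and 2.04 CPM to 0.0795, 0.189 and 0.173 CPM. With at least 10 counts in every library, 5 genes of this list were called lower.

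Genes that make lipid were more often lower than higher, and genes of lipid droplets more often higher than lower. In fatty acid and triglyceride synthesis, 8 of 20 tested genes were lower and 2 higher. FASN, which builds palmitate, measured 1172, 1458 and 1463 CPM at 20% O2 and 242, 216 and 217 CPM at 1% O2. Its group ranges were far apart, and the log2 fold change was -2.60 ± 0.10 (edgeR FDR = 7.9e-11). ACACA, which makes the malonyl-CoA that FASN uses, fell from 122, 151 and 159.8 CPM to 29.2, 27.1 and 25.1 CPM. MLXIPL, the glucose-sensing factor ChREBP, fell from 82.2, 97.4 and 91.6 CPM to 28.2, 28.9 and 26.6 CPM. LPIN1 and ME1 rose by 0.92 and 0.89. Lipid droplet genes, in contrast, were higher in 6 of 11 and lower in 3. PLIN2, the main droplet coat protein of liver cells, measured 408, 410.1 and 399.7 CPM at 20% O2 and 3012, 3094 and 3313 CPM at 1% O2. It stood 7.73-fold higher at 1% O2 (edgeR FDR = 2.8e-12). G0S2 and HILPDA, both inhibitors of the lipase PNPLA2, rose from 0.574, 0.157 and 0.335 CPM to 7.29, 8.82 and 10.1 CPM and from 12.1, 13.5 and 11.01 CPM to 29.9, 33.1 and 35.1 CPM. PNPLA2 and its activator ABHD5 were also higher, by 0.81 and 1.72. The perilipins PLIN5 and PLIN4 fell, with log2 fold changes of -2.93 and -1.40, and PLIN3 stayed under the threshold at 0.38.

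Cholesterol synthesis and uptake had 4 genes higher and 6 lower of 23, or 17.4% and 26.1%, near the 19.5% and 20.3% of all genes. LSS, which closes the sterol rings, fell from 141, 157 and 155 CPM to 31.4, 31.2 and 30.7 CPM. MSMO1, an oxygen-using methyl sterol oxidase, and INSIG1, which retains the sterol sensor in the ER, rose by 1.36 and 1.10. Replicate 1 at 1% O2 was the lowest of its group for both, with 48.3, 80.9 and 83.4 CPM for MSMO1 and 34.6, 57.3 and 56.3 CPM for INSIG1. In fatty acid oxidation and ketogenesis, 6 of 20 were lower and 2 higher. BDH1, the last enzyme of ketone body synthesis, fell from 13.1, 13.5 and 13.4 CPM to 1.33, 1.89 and 2.32 CPM.

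Mitochondrial transcripts moved in opposite directions within one genome. The ribosomal RNA MT-RNR2 went from 5582, 5360.1 and 5174 CPM to 21965, 25788 and 26325 CPM, and it took more counts than any other gene in each library at 1% O2. MT-RNR1 rose by 2.28 ± 0.09 on the log2 scale (edgeR FDR = 7.9e-11). Both rRNA genes together held 0.597% to 0.658% of counts at 20% O2 and 2.27% to 2.63% at 1% O2. The labels do not state how the libraries were selected, and the part of selection in these rRNA shares was not tested. The 13 protein-coding transcripts held 8 that were lower and none higher. MT-CO3, a subunit of cytochrome oxidase, measured 3348, 3109 and 3003 CPM at 20% O2 and 946, 859.6 and 918 CPM at 1% O2. Its log2 fold change was -1.80 ± 0.08 (edgeR FDR = 1.9e-10), and per kilobase it fell from 4022 to 1158 CPM. The other subunits, MT-CO2 (-0.23) and MT-CO1 (-0.52), stayed under the fold threshold, although MT-CO1 passed it at -0.59 without replicate 1 at 20% O2. Complex I subunits varied as widely. MT-ND6, the one encoded on the light strand, fell from 147, 154 and 165 CPM to 33.6, 34.2 and 35.7 CPM, and MT-ND1 from 1676, 1837 and 1783 CPM to 584, 541 and 537 CPM. MT-ND4, in contrast, measured 5623, 6051 and 5987 CPM at 20% O2 and 5857, 6460.2 and 6516 CPM at 1% O2 and was not called. MT-ATP8 (-1.22) and MT-ATP6 (-0.91) overlap each other, and MT-ND4L overlaps MT-ND4, so their reads may not be separable, and nuclear copies of mitochondrial sequence add the same doubt to the whole set.

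Nuclear genes of the respiratory chain changed little, with 12 higher and 1 lower of 72, under the 19.5% and 20.3% of all genes. Under scaling by total counts 5 were higher, and 7 were without replicate 3 at 20% O2. NDUFA4L2, a HIF-inducible relative of a cytochrome oxidase subunit, rose from 2.44, 1.88 and 2.46 CPM to 11.1, 10.3 and 9.68 CPM. COX4I2, the oxygen-regulated form of cytochrome oxidase subunit 4, had 1, 0 and 0 counts at 20% O2 and 13, 9 and 23 at 1% O2, a ratio of 27.2 (95% interval 4.65 to 1099.6, counting error only). Of 22 genes of the TCA cycle and pyruvate dehydrogenase, 4 (18.2%) were higher and 3 (13.6%) lower, also under the shares of all genes. Under scaling by total counts 1 was higher, and none with length and GC trends removed. OGDH, which makes succinyl-CoA, measured 187, 202 and 192 CPM at 20% O2 and 96.1, 97.8 and 102 CPM at 1% O2, with a log2 fold change of -0.97 ± 0.07 (edgeR FDR = 2.3e-08). SDHD, a membrane subunit of complex II, rose from 26.5, 16.5 and 21.1 CPM to 39.5, 41.7 and 43.5 CPM.

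Cytosolic ribosomal protein genes showed a small rise shared by most of the list. Of 81 tested genes, 69 were higher and none lower, with a median log2 fold change of 0.75 and a range from -0.24 to 1.11. Their position just above the threshold made the count depend on the settings. It was 29 under scaling by total counts, 38 when the test itself asked for a fold above 1.5, and 43 after trends over exon length and GC content were removed, and in each of these none was lower. RPS25 measured 221, 174 and 171 CPM at 20% O2 and 364, 404 and 408 CPM at 1% O2, and RPL37A measured 538, 428 and 429.6 CPM at 20% O2 and 830.1, 947 and 969.97 CPM at 1% O2. The groups did not overlap for either, although processed copies of these genes can take some of their reads. Mitochondrial ribosomal proteins had 25 higher and 3 lower of 78, and 13 higher and 7 lower under scaling by total counts. MRPL18 rose from 64.5, 57.2 and 55.4 CPM to 148, 172 and 152 CPM and MRPL44 from 43.96, 32.8 and 37.5 CPM to 91.05, 106 and 93.1 CPM. Genes that build ribosomes had 2 higher and 4 lower of 31, and 7 lower under scaling by total counts. POLR1A, the largest subunit of RNA polymerase I, fell from 118, 150.3 and 157 CPM to 77.95, 67.9 and 66.2 CPM, and the nucleolar factor MYBBP1A from 108, 123 and 127 CPM to 49.2, 41.4 and 41.5 CPM.

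Genes of the cell cycle changed in both directions, and so did all genes, of which 19.5% were higher and 20.3% lower. The shares higher and lower were 32.4% and 14.7% in DNA replication and 28.1% and 18.8% in repair. They were 18.5% and 11.1% in mitosis and 27.3% and 18.2% among CDK inhibitors and D cyclins. In DNA replication, 11 of 34 were higher and 5 lower, and 7 were higher under scaling by total counts. CDT1, which licenses origins, measured 71.9, 72.4 and 72.2 CPM at 20% O2 and 217, 243 and 231 CPM at 1% O2. It rose by 1.67 ± 0.07 (edgeR FDR = 1.4e-10), as did GINS3 by 1.47 and the origin recognition subunits ORC1 and ORC6 by 1.34 and 1.32. POLE, the catalytic subunit of the leading strand polymerase, fell from 190.1, 238 and 239 CPM to 109, 98.3 and 95.2 CPM. Of 32 repair genes, 9 were higher and 6 lower, and 6 were higher and 9 lower under scaling by total counts. EXO1, a nuclease of mismatch repair, rose 4.54-fold, from 25.5, 23.4 and 26.6 CPM to 121, 114 and 107 CPM. ERCC2, a helicase of nucleotide excision repair, and the kinase ATM fell, with log2 fold changes of -1.38 and -0.94. Mitosis genes were mostly uncalled, with 5 higher and 3 lower of 27, and 1 higher under scaling by total counts or with length and GC trends removed. The kinesin CENPE fell from 58.2, 52.8 and 63.99 CPM to 16.3, 16.2 and 17.3 CPM, and CDK1 rose from 78.02, 56.2 and 61.8 CPM to 151, 146 and 151 CPM. Among 11 CDK inhibitors and D cyclins with their relatives, 3 were higher and 2 lower, and 3 and 3 under scaling by total counts. CCND1, the cyclin of early G1, fell from 104, 113 and 107 CPM to 34.2, 32.5 and 31.9 CPM (edgeR FDR = 1.7e-09). The kinase inhibitors CDKN1B and CDKN2D rose by 1.09 and 1.88, and CDKN1C had a log2 fold change of -0.90. CCNG2, a cyclin of arrested cells, rose from 33.8, 33.3 and 32.5 CPM to 90.02, 104 and 103 CPM.

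Replication-dependent histone genes were lower in 13 of 38 tested cases and higher in 1, and 28 of the 66 listed were under the filter. H2AC6 measured 31.1, 26.7 and 27.95 CPM at 20% O2 and 5.75, 7.59 and 7.54 CPM at 1% O2, with a log2 fold change of -2.05 ± 0.21 (edgeR FDR = 8.3e-07). The messages of these genes mostly lack a poly(A) tail, and the labels do not state how the libraries were selected. Near-identical copies make each single value uncertain, and 8 were called lower when at least 10 counts were asked of every library.

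Of 9 tested genes of immune checkpoints and adenosine, 2 (22.2%) were higher and 1 (11.1%) lower, against 19.5% and 20.3% of all genes. Under scaling by total counts 2 were higher and 3 lower. CD274, which encodes the checkpoint ligand PD-L1, was low, with 0.215, 0.471 and 0.243 CPM at 20% O2 and 1.405, 1.08 and 1.14 CPM at 1% O2, and its groups did not overlap (log2 fold change 2.17 ± 0.39, edgeR FDR = 2.2e-04). PVR, a ligand of natural killer and T cell receptors, rose from 79.4, 89.7 and 88.9 CPM to 199.9, 196 and 187 CPM. NT5E, the ectonucleotidase CD73 that makes adenosine, fell from 42.5, 40.5 and 43.2 CPM to 7.18, 10.04 and 9.195 CPM. CD47 (0.24) and CD276 (-0.10) were not called. In antigen presentation, 5 of 13 genes were higher, a count that dropped to 2 without replicate 2 at 1% O2 and likewise without replicate 1 or replicate 3 at 20% O2. Under scaling by total counts 2 were higher and 3 lower, and with length and GC trends removed 4 and 2. TAP1, a peptide transporter, rose from 5.67, 4.71 and 6.36 CPM to 26.7, 26.9 and 23.8 CPM, and HLA-B rose by 0.79, while B2M (0.33) was not called. Of 18 tested interferon-stimulated genes, 3 (16.7%) were higher and 4 (22.2%) lower, near the shares of all genes, and 7 were lower under scaling by total counts. STAT2, a signal transducer of the interferon receptor, fell from 48.5, 63.3 and 59.7 CPM to 21.2, 16.6 and 17.9 CPM, and IRF7 rose from 7.17, 5.97 and 7.48 CPM to 21.4, 22.96 and 25.4 CPM.

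Among regulators of RNA and DNA, the CLK kinases, which phosphorylate the SR splicing proteins, were all higher. CLK3 measured 41.1, 39.6 and 38.3 CPM at 20% O2 and 165, 201 and 195 CPM at 1% O2, and CLK4, CLK1 and CLK2 rose by 1.91, 1.79 and 0.65. No SR protein gene was called higher, and SRSF5 and SRSF2 fell from 127, 118 and 126 CPM to 62.6, 54.5 and 54.6 CPM and from 382, 362 and 357 CPM to 194, 204 and 204 CPM. The ZNF zinc finger genes, mostly repressors that bind mobile elements or gene promoters, formed a large group in which 203 of 483 tested genes were higher, or 42.03%, and 50, or 10.4%, lower, against 19.5% and 20.3% of all genes. ZNF442 rose from 1.29, 0.471 and 1.28 CPM to 10.5, 11.4 and 11.2 CPM, and ZNF618 fell from 30.4, 44.1 and 43.2 CPM to 3.53, 4.43 and 3.699 CPM. Many of these genes are related in sequence, and reads could be divided among them.

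**Figure D3:**
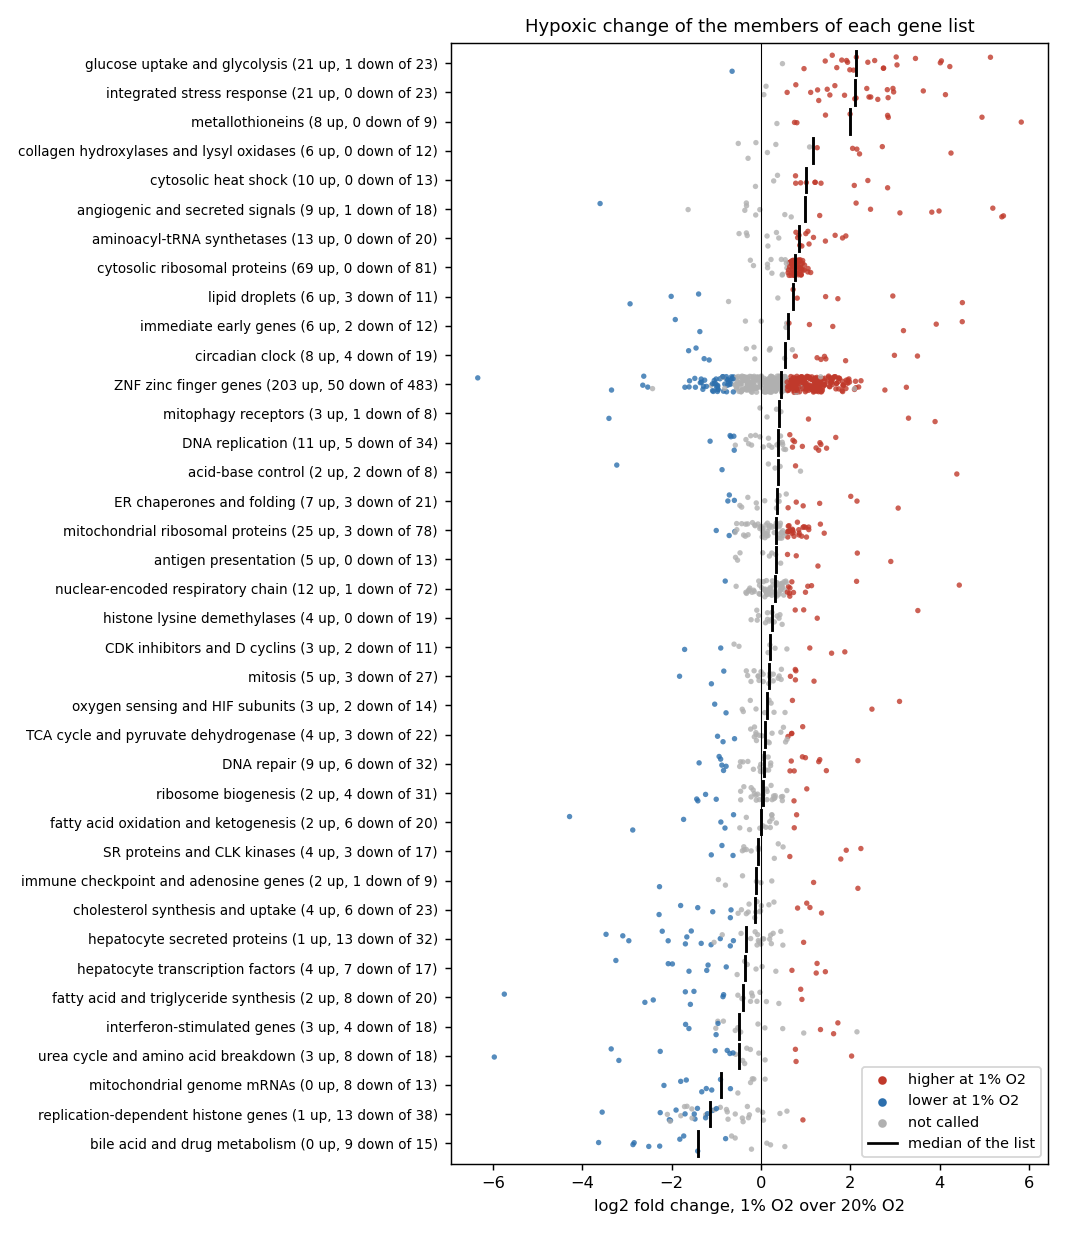
Log2 fold change of 1% over 20% O2 (horizontal axis) of every tested member of 38 gene lists (rows), colored by call, with a black bar at each median and the counts called beside each name. Glycolysis and the integrated stress response lay at the top with medians of 2.14 and 2.10, and bile acid and drug metabolism lay at the bottom with -1.42.

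The class and length of a gene also went with its direction. Of protein-coding genes, 25.1% were higher and 20.4% lower. Genes of long intergenic noncoding RNA were 6.88% higher and 26.02% lower, and transcripts annotated inside introns on the sense strand were 3.84% higher and 30.7% lower. The share of counts on these intronic transcripts was between 0.0343% and 0.0356% at 20% O2 and between 0.0159% and 0.0166% at 1% O2. Classes were not compared within a level. Of all genes under 1 CPM, 7.27% were higher and 16.4% lower, and from 1 to 10 CPM 21.6% and 35.6% were. By exon length, 37.9% of the longest 10% of genes were lower and 12.5% higher, against 18.4% and 27.1% in the fifth of 10 groups of equal size. When each library was corrected for its trends over length and GC content, 3623 genes were higher and 4940 lower, and 3375 and 4203 of these were among the genes called without that correction. APOB, FASN, ACACA and GPAM are long transcripts, and their log2 fold changes were -3.47, -2.60, -2.41 and -5.74 before and -3.12, -2.17, -2.07 and -5.76 after the removal. The calls of ATM, POLE, POLR1A and HIF3A as lower and of ME1, SDHD, SLC30A1, CLK2 and HSP90AB1 as higher were lost after it, while PFKL (0.85) and TF (0.82) became higher and MT-CO1 (-0.77) lower. The part of the intronic and mitochondrial rRNA shares in these trends was not tested.

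**Figure D4:**
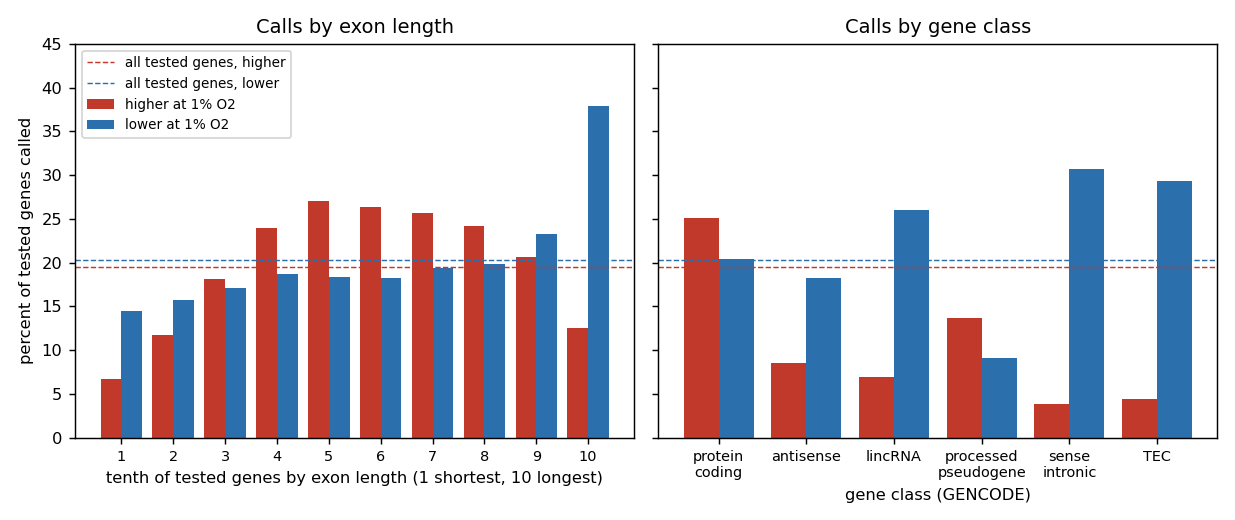
Percent of tested genes called higher (red) and lower (blue) at 1% O2 (vertical axis) by exon length in 10 groups of equal size (left) and by gene class (right), with dashed lines at 19.5% and 20.3% for all genes tested. Lower calls reached 37.9% in the longest group and 30.7% in sense intronic transcripts.

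The core motif was counted in RefSeq promoters of 300 bases, 250 before and 50 after the start, for 9286 tested genes with a single window. It was held by 66.1% of the promoters of genes called higher (95% Wilson interval 64.1 to 68.0), by 62.0% of those of genes not called (60.6 to 63.3) and by 53.9% of those of genes called lower (51.6 to 56.2). Over the 9286 promoters of tested genes the share was 61.4%, and over all 22114 promoters it was 47.3%. Among genes higher by over 4-fold the share was 59.5% (53.7 to 65.1), and among genes lower by over 4-fold it was 42.5%. The windows of these sets past 4-fold differed in base composition as well, with a median GC content of 66.7% in the first and 58.7% in the second. The median was 65% among all genes called higher, called lower or not called. In the glycolysis list, 11 of 12 promoters with a single window held the motif, 6 of them with ACGTG and 9 of them before the start. The printed window of GAPDH, before a start inside the gene, holds CACGTG, in which ACGTG reads on both strands. A match of 5 letters is common by its length alone and is a description of the window, not of binding.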

How the data were processed

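RNA from Hep3B cells was sequenced, 1 library a sample, and the authors deposited 1 table of whole-number gene counts for the 9 libraries, made with STAR against an Ensembl 100 index of GRCh38 and featureCounts after trimming with Bbduk, per the labels and the study's methods. The strand setting and tool versions were not given in the sources used here. Totals per library set the precision, and 1 count equals 0.157 CPM in the smallest vehicle library and 0.0265 CPM in the largest.

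Genes whose counts summed to at least 10 over the 9 libraries were tested with the edgeR 4.0.16 quasi-likelihood test in R 4.3.3, with TMM scaling, 1 fit over 3 groups and Benjamini-Hochberg adjustment. Calls needed an FDR below 0.05 with a fold change over 1.5. The script was tested on simulated data. Samples were grouped by their labels, and p-values measure the spread between wells that the labels call biological replicates. No pair of vehicle libraries within a group agreed within sampling noise. Positions, classes, exon lengths and GC content came from GENCODE 29, which matched 22265 of the 22672 genes tested, and promoter windows from RefSeq on GRCh38.p14.

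Named genes were the 10 largest log2 fold changes in each direction where the higher group averaged 100 or more normalized counts and no libraries overlapped, the 5 largest differences per kilobase in each direction, up to 4 called members of a list in its main direction and 2 in the other, the members of short lists, the cell type markers and the genes the study assayed. LDHA, PGK1, PFKL and ATF4 fall outside this rule and were chosen after their values were seen. The members and the 41 lists were chosen with earlier results of these data known. Alternatives were DESeq2 1.42.0, other scalings, filters, thresholds and sample sets, thinned counts, a replicate block, removal of length and GC trends (lowess fits to each library) and leaving out each library. Some genes named by this rule are not reported here. The intervals of ratios and shares cover counting error only.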

Additional observations from a re-analysis of the deposited data

How the results depend on the processing

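The numbers of genes higher and lower stayed within 1.5 times of 4412 and 4595 under all but 2 settings. With at least 10 counts in every library 2824 genes were higher, and with a fold change above 2 there were 2449. Leaving out each library in turn gave 4013 to 4222 higher and 3846 to 4630 lower genes, the smallest numbers of both without replicate 3 at 20% O2. DESeq2 called 3855 higher and 4450 lower. Higher genes made up 35.7% of calls with upper quartile scaling and 42.3% with length and GC trends removed, against 49.0% as reported.

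Libraries of the 2 groups with the same replicate number did not deviate together (r of -0.17, -0.02 and -0.15 over 12537 genes), so the numbers were not taken to pair them. With the replicate number as a block 4296 genes were higher and 4375 lower, and 3516 and 4702 with the block and with length and GC trends removed.

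With ACGTG alone as the motif, 27.8% of promoters of higher genes, 22.2% of lower genes and 26.9% of the others held it. With the bases before the start only, the shares were 60.6%, 48.6% and 56.3%. In both cases the order of the 3 shares stayed as reported, and the cause of the change is the shorter motif list or window.

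The changes of ALB, HIF1A and MT-ND4, none of them called, turned from above to below 0 under some settings. With at least 10 counts in every library their log2 fold changes were -0.072, -0.027 and -0.018. Under scaling by total counts they were -0.18, -0.13 and -0.12, and under upper quartile scaling -0.15, -0.11 and -0.10. With length and GC trends removed they were -0.36, -0.32 and -0.19, with the block in addition -0.36, -0.31 and -0.19. ALB and HIF1A had -0.065 and -0.029 in thinned libraries and -0.053 and -0.0082 among protein-coding genes only. ALB had -0.0098 with DESeq2 and -0.0098 with RLE size factors. Leaving out 1 library at a time gave values from -0.021 to 0.13 for ALB and from -0.00057 to 0.14 for HIF1A. Of all values of named genes under the alternatives, 4046 kept both the direction and the call, 94 lost the call, 30 gained it and 24 turned.

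Depth limits the genes with few counts at 20% O2, such as GEM, NGFR, COX4I2 and MT1M, whose ratios are bounded on one side only or widely. The smallest library stood apart from its group on PC2, and leaving it out gave 4216 higher and 4440 lower genes. Replicate 1 at 20% O2 differed most from its group by chi-square, and leaving it out gave 4093 higher and 4630 lower genes.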
